A study of Mus musculus with 8 samples.

Results

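Ptf1a, Rbpjl, Bhlha15, Nr5a2 and Gata4 encode transcription factors of pancreatic acinar cells, the exocrine cells that make digestive enzymes. The genes were chosen by name, with earlier results of these data known, and all 5 are among the 19945 genes of the deposited count table. They were followed across the cell types that came with handpicked mouse islets in droplet-based single-cell RNA sequencing (scRNA-seq). Wild-type mice received vehicle or FAKi (PF562271), an inhibitor of focal adhesion kinase, at 50 mg/kg in 2 doses a day for 3 weeks by gavage, and islets were isolated 10 days after the last dose. The study used young adult wild-type mice of the strains C57BL/6 and CD-1, and which of them gave these islets is not given in the sources used here. The study sequenced these cells to characterize insulin-producing cells that it traced to acinar cells, and it focused on acinar and β-cells.

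Ptf1a is a basic helix-loop-helix (bHLH) factor that sits with an E protein and with Rbpjl in the PTF1 complex, which binds the promoters of the digestive enzyme genes. Rbpjl takes the place of the Notch mediator Rbpj in that complex as acinar cells mature. Bhlha15, also known as Mist1, is a bHLH factor of secretory cells that governs the build-up of the secretory apparatus. Nr5a2 is a nuclear receptor that acts together with PTF1 in acinar cells, and Gata4 is a zinc finger factor needed early in pancreas formation. Both acinar and ductal cells descend from progenitors that carry Ptf1a.

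The genes lie apart in the genome (mm10, GENCODE M21). Ptf1a is at chr2:19445663-19447501 and Rbpjl at chr2:164403141-164415448, both on the plus strand. Bhlha15 is at chr5:144190286-144194441 on the plus strand, Nr5a2 at chr1:136842571-136960448 on the minus strand and Gata4 at chr14:63198922-63271692 on the minus strand. RefSeq promoter windows (GRCm38.p6) were matched by symbol for 4 of the 5 genes. Sequence is printed for these 4, because the members include bHLH, GATA and nuclear receptor proteins whose known motifs can be looked for there. Capitals mark matches of the motifs searched, and each sequence runs 5′ to 3′ on the strand of its gene. The stretches are chr2:19445413-19445662 for Ptf1a, chr2:164403095-164403124 for Rbpjl, chr5:144190036-144190285 for Bhlha15 and chr1:136960449-136960698 for Nr5a2. Those of Ptf1a, Bhlha15 and Nr5a2 lie before every annotated start. The 30 bases of Rbpjl surround its E-boxes and lie before its GENCODE start, but inside the gene as RefSeq gives it, from base 164403081.
Ptf1a: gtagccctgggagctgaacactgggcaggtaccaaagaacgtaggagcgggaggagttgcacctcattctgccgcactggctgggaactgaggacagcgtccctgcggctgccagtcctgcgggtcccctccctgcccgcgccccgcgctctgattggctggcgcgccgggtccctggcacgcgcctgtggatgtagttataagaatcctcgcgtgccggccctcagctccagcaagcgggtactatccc
Rbpjl: agcctaCATCTGcccagCAGGTGtccctgc
Bhlha15: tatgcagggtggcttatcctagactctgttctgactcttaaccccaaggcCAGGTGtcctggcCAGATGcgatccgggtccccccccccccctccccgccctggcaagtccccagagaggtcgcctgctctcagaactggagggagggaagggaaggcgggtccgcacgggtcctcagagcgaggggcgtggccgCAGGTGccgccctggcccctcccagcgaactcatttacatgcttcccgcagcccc
Nr5a2: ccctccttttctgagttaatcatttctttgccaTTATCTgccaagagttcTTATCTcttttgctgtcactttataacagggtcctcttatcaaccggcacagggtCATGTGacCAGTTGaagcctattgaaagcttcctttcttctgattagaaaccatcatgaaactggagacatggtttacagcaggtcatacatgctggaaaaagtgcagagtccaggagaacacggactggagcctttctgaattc

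Windows of 300 bases were searched on both strands for the E-box CANNTG bound by bHLH factors, the TC-box TGGGAAA of the PTF1 site, the Nr5a2 motif AAGGTCA and the GATA motif AGATAA. No match overlapped a match of another motif. The E-box was present in the windows of Rbpjl (2 matches), Bhlha15 (3 matches) and Nr5a2 (2 matches), and not in that of Ptf1a. Of all 32851 windows, 72.3% held an E-box. The GATA motif was found once in the window of Rbpjl, outside the stretch printed, from base 164403163, which is 31 bases before the start that the window is set on (164403194) and inside the gene as GENCODE gives it. It was found 2 times in the window of Nr5a2, and it was present in 11.2% of all windows. Neither TGGGAAA, present in 8.06% of all windows, nor AAGGTCA, present in 4.72%, was found in these 4 windows. A second RefSeq window of Nr5a2 inside the gene held 3 E-boxes and no other match. These matches describe letters only.

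There was 1 library per condition, with islets pooled from 5 mice in each and read over 4 lanes. No test across animals is possible, and the 95% intervals given here cover counting error only. The vehicle library held 3776 cells and 59514118 UMIs, and the FAKi library 3183 cells and 57836783 UMIs. The deposited annotation names 12 cell types, with β-cells in 3 clusters (0, 1 and 10), which gives 14 classes. In summed libraries, a lower level can come from fewer cells that carry a gene or from less RNA in each, and these cannot be told apart.

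The labels were checked against marker genes. All 5 acinar markers were present in both acinar clusters, at a summed level of 149930 CPM (UMIs of a gene scaled to an equal total in each group) in vehicle and 119424 CPM in FAKi for cluster 1, and 215737 and 208819 CPM for cluster 2. Acinar cluster 1 also carried β-cell markers, summing to 157590 and 252201 CPM, and erythroid markers at 6594 and 8952 CPM, where acinar cluster 2 had 6994 and 9554 CPM and 33.4 and 15.9 CPM. It was shallow, with medians of 1480 UMIs per cell in vehicle and 1140 in FAKi, against 7931 and 7280.5 in acinar cluster 2. The 28 FAKi cells annotated as T cells went against their label, with T-cell markers at 108 CPM and β-cell markers at 456519 CPM. They are drawn in the plot of levels by class, and enter the comparison cells for detection and the search for like genes below, which are also given without them. The class annotated as δ-cells carried Ppy, the marker of PP cells, at 144939 and 141153 CPM, above the 3 δ-cell markers summed, at 112504 and 110964 CPM. The libraries shared 4 cell barcodes. The part of these differences in the results on acinar cluster 1 was not tested.

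Across all cells, Ptf1a and Rbpjl UMIs came mostly from acinar cells, Bhlha15 UMIs from β-cells, and Nr5a2 UMIs from ductal cells. Ptf1a had 75 UMIs in vehicle and 85 in FAKi, of which acinar cells held 82.7% and 77.6%. Rbpjl had 86 and 137 UMIs, with 72.1% and 74.5% in acinar cells. Acinar cells were only 6.54% of cells in vehicle and 12.9% in FAKi, with 2.76% and 3.88% of all UMIs. Bhlha15 had 882 and 1039 UMIs, of which 83.9% and 81.8% lay in β-cells, which held 55.9% and 66.4% of all UMIs, and 4.88% and 7.31% in acinar cells. Nr5a2 had 389 and 230 UMIs, with 71.5% and 65.2% in ductal cells, 14.7% and 12.2% in endothelial cells and 5.66% and 11.3% in acinar cells. Gata4 was the scarcest, with 25 and 18 UMIs, of which 28.0% and 55.6% were acinar and 44.0% and 22.2% from β-cells.

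**Figure D1:**
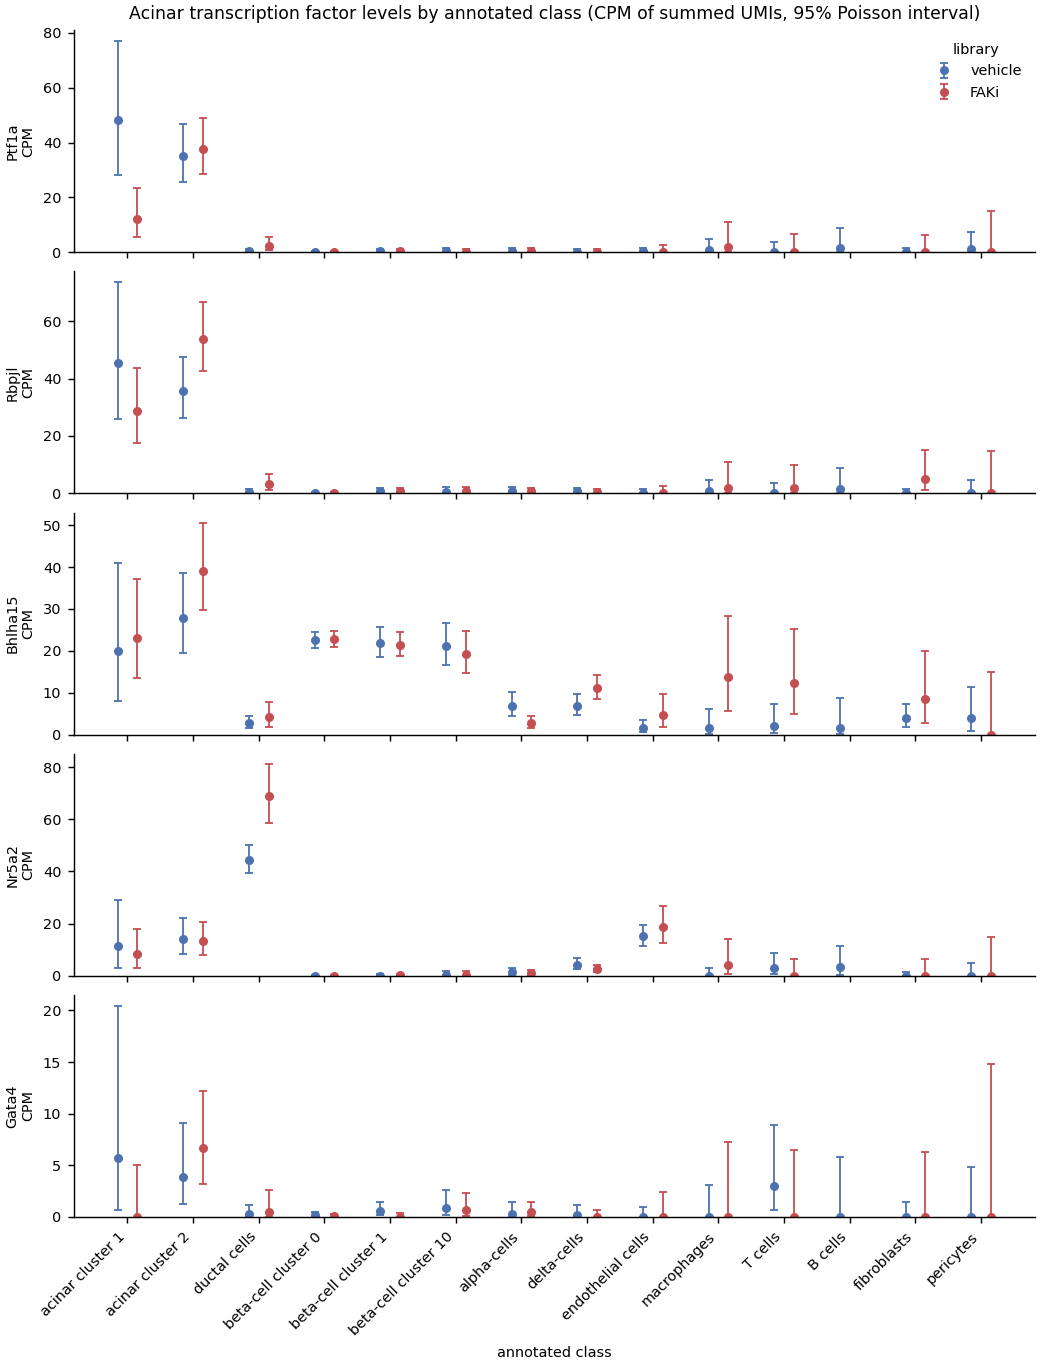
Level of each member (CPM, 1 panel per gene, linear axes from 0) in each annotated class, with separate points for the vehicle and FAKi libraries and exact Poisson 95% intervals as bars; classes under 20 cells in a library are not drawn. Ptf1a and Rbpjl stood out in the acinar clusters (12.2 to 53.7 CPM), Bhlha15 was at 19.3 to 39.1 CPM in acinar clusters and β-cells alike, and Nr5a2 was highest in ductal cells (44.5 and 69.1 CPM).

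Ptf1a, the DNA-binding core of PTF1, was measured at 48.2 CPM (95% interval 28.1 to 77.1, 17 UMIs) in vehicle acinar cluster 1 and at 34.9 CPM (25.5 to 46.7, 45 UMIs) in vehicle acinar cluster 2. In the FAKi library, the levels were 12.2 CPM (5.60 to 23.3, 9 UMIs) in cluster 1 and 37.8 CPM (28.6 to 49.0, 57 UMIs) in cluster 2. Thus 3 of the 4 groups had intervals that overlapped each other, and FAKi acinar cluster 1 lay below all 3. Outside the acinar clusters, Ptf1a reached at most 1.58 CPM in vehicle (B cells, 1 UMI) and 2.30 CPM in FAKi (ductal cells, 5 UMIs). In vehicle, acinar cluster 2 was 22.1-fold (3.77 to 893) above the B cells, the class next in order. In the 3 β-cell clusters, Ptf1a was between 0 and 0.553 CPM.

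Rbpjl, the partner of Ptf1a in mature acinar cells, was at 45.3 CPM (25.9 to 73.6, 16 UMIs) in acinar cluster 1 and 35.7 CPM (26.1 to 47.6, 46 UMIs) in acinar cluster 2 of the vehicle library. In the FAKi library it was at 28.6 CPM (17.7 to 43.7, 21 UMIs) and 53.7 CPM (42.7 to 66.8, 81 UMIs). The clusters were not separable in vehicle, whereas in FAKi cluster 2 was 1.88-fold (1.15 to 3.20) above cluster 1. Outside the acinar clusters, the highest value was 5.13 CPM in FAKi fibroblasts, from 3 UMIs, of which 2 lay in 1 cell with 50.9% of its UMIs on acinar enzyme genes.

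Bhlha15 was close in acinar cells and β-cells in CPM, except for a higher level in FAKi acinar cluster 2. In vehicle, its level was 19.8 CPM (7 UMIs) in acinar cluster 1, 27.9 CPM (36 UMIs) in acinar cluster 2 and 22.5 CPM (20.6 to 24.6, 510 UMIs) in β-cell cluster 0. β-cell clusters 1 and 10 were at 21.9 and 21.1 CPM. None of these neighbours in the order had an interval of their ratio that left out 1. In FAKi, acinar clusters 1 and 2 were at 23.1 CPM (17 UMIs) and 39.1 CPM (59 UMIs), and the β-cell clusters at 22.8, 21.5 and 19.3 CPM. Acinar cluster 2 over β-cell cluster 0 was 1.24 (0.859 to 1.74) in vehicle and 1.72 (1.29 to 2.25) in FAKi, the latter with an interval above 1. Enzymes weigh on the total of acinar cells and insulin on that of β-cells, and their part in these ratios was not tested. α-cells were lower, at 6.86 CPM in vehicle and 2.83 CPM in FAKi, so that β-cell cluster 0 was 3.28-fold (2.21 to 5.07) and 8.07-fold (4.99 to 13.9) above them. δ-cells were at 6.86 and 11.0 CPM.

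In CPM, Nr5a2 was higher in ductal cells than in acinar cells. Its level in ductal cells was 44.5 CPM (39.4 to 50.05, 278 UMIs) in vehicle and 69.1 CPM (58.5 to 81.0, 150 UMIs) in FAKi. Acinar cluster 2 was at 14.0 CPM (18 UMIs) and 13.3 CPM (20 UMIs), and acinar cluster 1 at 11.3 CPM (4 UMIs) and 8.17 CPM (6 UMIs). Ductal cells thus exceeded acinar cluster 2 by 3.19-fold (1.98 to 5.45) and 5.21-fold (3.25 to 8.77). Acinar enzymes made up 705026 and 699996 CPM of acinar cluster 2, against 5505 and 11836 CPM of ductal cells. This lowers the CPM of other genes in acinar cluster 2, and its part in these ratios was not tested. Endothelial cells were next to ductal cells, at 15.1 CPM (57 UMIs) and 18.6 CPM (28 UMIs), and were not separable from acinar cluster 2. The ductal level was 2.95-fold (2.21 to 4.0) above the endothelial level in vehicle and 3.71-fold (2.46 to 5.77) in FAKi. δ-cells held 20 and 14 UMIs of Nr5a2, or 4.28 and 2.53 CPM, and β-cell clusters at most 0.317 CPM.

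Gata4 counts allowed little. Acinar cluster 1 held 2 UMIs in vehicle and 0 in FAKi, and acinar cluster 2 held 5 and 10, or 3.88 and 6.63 CPM. In vehicle T cells there were 3 Gata4 UMIs, all in 1 cell. In FAKi, 0 UMIs in acinar cluster 1 against 10 in cluster 2 gave a ratio with an interval of 0 to 0.915. With both libraries at or under 3 UMIs in acinar cluster 1, no fold between conditions is given.

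Droplets also catch free RNA, so the share of cells with a UMI was set beside cell types that should lack these genes. Unthinned, Ptf1a was found in 8.07% of vehicle and 2.02% of FAKi cells of acinar cluster 1, and in 31.4% and 22.8% of cells of acinar cluster 2. In endothelial and immune cells (median depth 5186 UMIs in vehicle and 4883 in FAKi) it was found in 0.315% (3 of 953 cells) and 0.277% (1 of 361 cells). The interval of the acinar share lay above that of these cells in acinar cluster 2 of both libraries and in vehicle acinar cluster 1. In FAKi acinar cluster 1 it was 0.745% to 4.35% (6 of 297 cells) and overlapped the 0.00701% to 1.53% of these cells, which were deeper. For Rbpjl the acinar shares were 6.83% and 4.71% in cluster 1 and 30.2% and 35.1% in cluster 2, against 0.315% and 0.554%. For Bhlha15 the comparison cells gave 1.05% in vehicle and 4.16% in FAKi (1.02% and 2.70% without those annotated as T cells), against 48.6% and 52.2% of β-cell cluster 0. Without the T cells, Ptf1a and Rbpjl were each in 0.382% of the comparison cells in vehicle and 0.300% in FAKi. For Nr5a2 they gave 5.46% and 6.65%, most of it from endothelial cells, or 6.24% and 7.21% without T cells, while fibroblasts and pericytes gave 0 of 401 and 0 of 127 cells, against 29.5% and 47.4% of ductal cells.

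When each cell was thinned to 1000 UMIs, the difference in share between the acinar clusters shrank. Ptf1a was then present in 4.44% (6 of 135 cells) and 1.44% (3 of 208) of acinar cluster 1 and in 4.65% (4 of 86) and 5.26% (6 of 114) of acinar cluster 2, in vehicle and FAKi. Thinning left out 26 vehicle and 89 FAKi cells of acinar cluster 1 that were shallower. At this depth, cluster 2 was thus close to cluster 1 in vehicle, with 4 to 6 cells behind each share. Rbpjl gave 4.44% and 1.44% in cluster 1 and 8.14% and 6.14% in cluster 2. These shares rest on 1 random draw, and the shares expected over all draws were 4.40% and 2.94% for Rbpjl in cluster 1 and 3.20% and 4.59% in cluster 2. The vehicle value of cluster 2 in the draw was thus over 2 times the expected one, and the order of the libraries in cluster 2 was the opposite. Nr5a2 was in 2.63% and 5.81% of ductal cells, and in 0 of 86 vehicle cells of acinar cluster 2, where the exact interval of the share of cells with a UMI at this depth reaches 4.20% (14.0% had one unthinned). At 5000 UMIs per cell, Nr5a2 was in 18.8% of vehicle and 25.7% of FAKi ductal cells, in 7.26% and 10.0% of endothelial cells and in 6.25% and 8.33% of acinar cluster 2. The order of these classes was the same as in CPM. At 5000 UMIs, Bhlha15 was in 13.0% and 12.4% of β-cell cluster 0 and in 17.2% and 19.4% of acinar cluster 2.

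Few acinar cells showed several members at once. In acinar cluster 2, 41.9% of vehicle and 38.6% of FAKi cells had no UMI of any member, and 2 cells in each library had all 5. Those 2 cells had medians of 105124 and 81764 UMIs, so the number of members seen moved with depth. In vehicle, 13 cells of acinar cluster 2 had both Ptf1a and Rbpjl, which is 48.1% of the 27 cells with Ptf1a and 50% of the 26 with Rbpjl. Their median depth was 26454 UMIs, against 5795 for cells with neither gene. In FAKi, 15 cells had both, or 57.7% of 26 and 37.5% of 40, with medians of 23584 and 4584 UMIs. In acinar cluster 1, 85.1% of vehicle and 88.9% of FAKi cells showed no member. After thinning to 1000 UMIs, at least 1 member was seen in 8.89% and 6.25% of acinar cluster 1 and in 15.1% and 14.9% of acinar cluster 2.

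Acinar cluster 1 was compared with acinar cluster 2 in each library, to see whether the factors differ between the acinar cells that carry insulin transcripts and those that carry few. A gene was counted as past the limit when its CPM ratio was at least 2 or at most 0.5 with an interval leaving out 1, among genes for which both groups together held 20 UMIs or more. In vehicle, the ratio of cluster 1 over cluster 2 was 1.38 (0.740 to 2.46) for Ptf1a, 1.27 (0.671 to 2.29) for Rbpjl, 0.710 (0.267 to 1.62) for Bhlha15 and 0.811 (0.200 to 2.46) for Nr5a2. Of these 4 members with enough UMIs, 0 were past the limit, against 31.0% of all 1819 genes. Across all genes, the median log2 ratio was 0.67, so all 4 members lay below the middle gene. In FAKi, the ratio was 0.324 (0.141 to 0.659) for Ptf1a, 0.532 (0.313 to 0.868) for Rbpjl, 0.591 (0.323 to 1.03) for Bhlha15 and 0.615 (0.202 to 1.59) for Nr5a2. Only Ptf1a of the 4 was past the limit, against 37.6% of 2890 genes, of which 1017 were higher and 71 lower in cluster 1. The median log2 ratio of all genes was 0.77, and that of Ptf1a was -1.63. In vehicle, 528 genes were past the limit upward and 35 downward.

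FAKi was then compared with vehicle within each acinar cluster. In acinar cluster 1, Ptf1a was lower in FAKi, with 12.2 against 48.2 CPM and a ratio of 0.254 (0.0999 to 0.603, log2 -1.98). Rbpjl had a ratio of 0.630 (0.313 to 1.29) and Bhlha15 one of 1.17 (0.460 to 3.33), and for neither did the interval leave out 1. Of these 3 members, Ptf1a alone was past the limit, against 5.49% of 2039 genes. The FAKi cells of acinar cluster 1 carried more insulin (Ins1 and Ins2 summed, 234124 against 146632 CPM) and fewer acinar enzyme UMIs (392590 against 487677 CPM). The part of this makeup in the Ptf1a ratio was not tested. Per 100000 UMIs of the 21 acinar enzymes, Ptf1a was at 9.88 in vehicle and 3.12 in FAKi, a ratio of 0.316 (0.124 to 0.749), so the direction was the same on that scale. Between the clusters in FAKi, the enzyme scale gave 0.578 (0.251 to 1.18) for Ptf1a and 0.948 (0.557 to 1.55) for Rbpjl, and neither interval then left out 1. In vehicle it gave 1.99 (1.07 to 3.55) for Ptf1a.

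In acinar cluster 2, Ptf1a was at 34.9 CPM in vehicle and 37.8 CPM in FAKi, a ratio of 1.08 (0.720 to 1.64). Rbpjl was higher in FAKi, with a ratio of 1.51 (1.04 to 2.21), and Bhlha15 had a ratio of 1.40 (0.910 to 2.18). Nr5a2 had a ratio of 0.950 (0.477 to 1.90), or 2.04 when CPM was averaged over cells, and Gata4, with 5 and 10 UMIs, one of 1.71 (0.532 to 6.37). None of the 4 members with enough UMIs was past the limit, against 4.68% of 2648 genes. The Rbpjl difference rested in part on 1 FAKi cell of 14564 UMIs with 15 of the 81 Rbpjl UMIs, or 18.5%. Without the top cell of each library, the ratio was 1.39 (0.923 to 2.12), and in the 1 draw of cells thinned to 1000 UMIs it turned to 0.660, although the shares of cells expected over all draws were higher in FAKi, as given above. The mean of CPM over cells gave 1.54. Another FAKi cell of 45576 UMIs held 17 of the 57 Ptf1a UMIs, or 29.8%, and the Ptf1a ratio without top cells was 0.830 (0.519 to 1.33).

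A few cells weighed on acinar cluster 1. Chosen after their values were seen, 3 of its cells, 2 in vehicle and 1 in FAKi, had 29.9%, 16.5% and 16.6% of their UMIs on Malat1, a nuclear noncoding RNA, where the next acinar cell had 7.56%. They had 1835, 1733 and 1690 UMIs and only 2.48% to 3.05% of UMIs on acinar enzymes. Ptf1a was found 3, 2 and 2 times in them and Rbpjl 4, 2 and 5 times. Together these cells had Ptf1a at 1331 CPM (535 to 2743) and Rbpjl at 2092 CPM (1044 to 3743), against 31.2 CPM (25.9 to 37.3) and 39.4 CPM (33.4 to 46.2) in the other 655 acinar cells. They held 26.9% of the 26 Ptf1a UMIs and 29.7% of the 37 Rbpjl UMIs of acinar cluster 1 in both libraries together. In 47 cells of other types with at least 10% Malat1, 0 UMIs of any member were found, where the interval for each reaches 30.7 CPM.

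**Figure D2:**
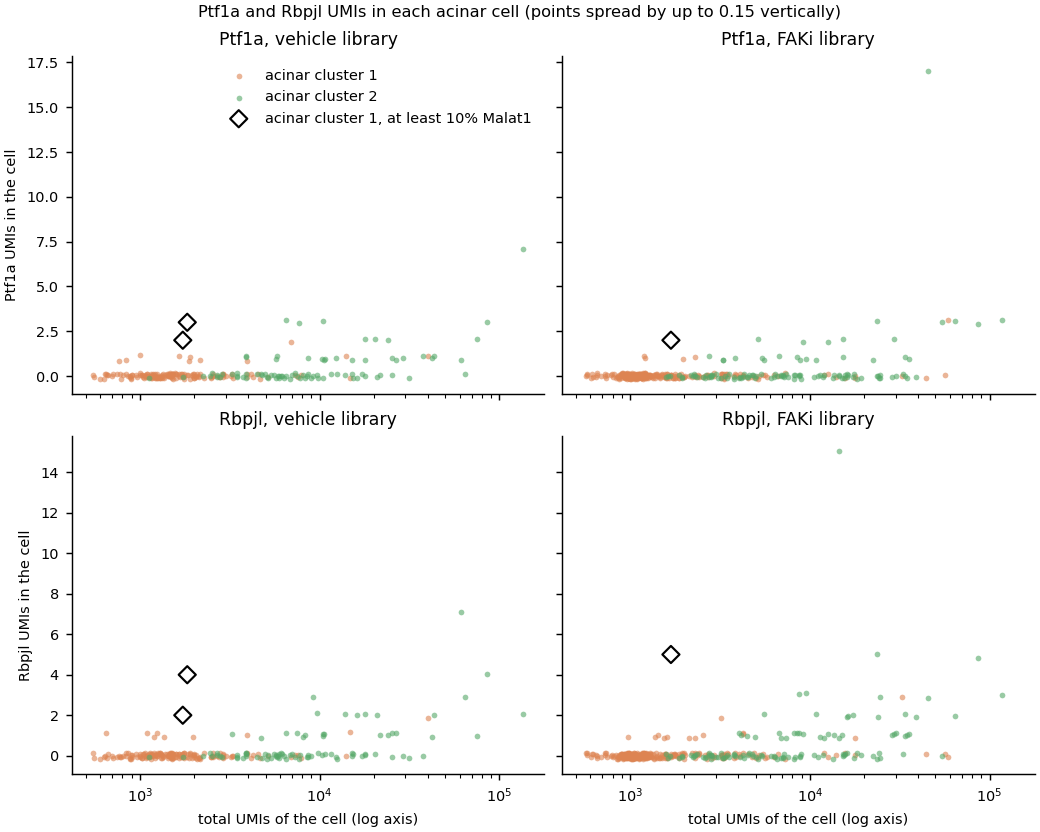
UMIs of Ptf1a (upper panels) and Rbpjl (lower panels) in each acinar cell of the vehicle and FAKi libraries, against the total UMIs of the cell on a log axis; each point is a cell, colours mark the acinar clusters, and points are spread slightly in height. Open diamonds are the 3 cells at 16.5% to 29.9% Malat1, which lie above other cells of their depth, and in FAKi single cells of acinar cluster 2 reach 17 Ptf1a and 15 Rbpjl UMIs.

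Without these 3 cells, the ratio of acinar cluster 1 over cluster 2 for Ptf1a was 0.984 (0.474 to 1.89) in vehicle and 0.253 (0.0972 to 0.555) in FAKi. For Rbpjl in vehicle, the ratio fell from 1.27 (0.671 to 2.29), an interval that held 1, to under 1. FAKi over vehicle in acinar cluster 1 was then 0.278 (0.0927 to 0.766) for Ptf1a, from 12 vehicle and 7 FAKi UMIs, which is under the minimum of 20 and so not counted, and 0.762 (0.325 to 1.88) for Rbpjl. For Rbpjl in FAKi, the ratio between the clusters moved from 0.532 to 0.406 (0.222 to 0.700), past the limit, and it was also past it without the top cells, at 0.494 (0.267 to 0.862). The top FAKi cell of cluster 1 is 1 of these 3 cells, so both settings leave out the same cell there. On the enzyme scale without these cells, Ptf1a in cluster 1 over cluster 2 was 1.41 (0.678 to 2.71) in vehicle and 0.449 (0.173 to 0.987) in FAKi, where the interval left out 1. All 3 cells were chosen after their values were seen and were high in Ptf1a and Rbpjl. Leaving them out could thus only lower these genes in cluster 1.

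Cells outside the acinar clusters carry acinar enzyme transcripts too, so Ptf1a and Rbpjl were also counted per 100000 enzyme UMIs in each class. In acinar cluster 2, Ptf1a was at 4.95 in vehicle and 5.40 in FAKi. β-cell cluster 1 gave 3.48 and 5.28, and α-cells 3.06 and 4.91. The ratio of β-cell cluster 1 over acinar cluster 2 on this scale was 0.703 (0.140 to 2.19) and 0.978 (0.345 to 2.26), so the few Ptf1a UMIs in these β-cells stood to the enzyme UMIs about as in acinar cells, within wide intervals. For Rbpjl the same ratio was 1.38 (0.480 to 3.23) and 1.15 (0.530 to 2.22). β-cell cluster 0, however, had 76.8 (20.9 to 197) and 36.5 (9.93 to 93.4) Rbpjl UMIs per 100000 enzyme UMIs, from 4 UMIs in each library, and vehicle δ-cells 48.2 (9.95 to 141) from 3 UMIs. These intervals lay above those of acinar cluster 2, at 5.06 (3.71 to 6.75) in vehicle and 7.68 (6.10 to 9.54) in FAKi. The FAKi δ-cells, at 27.7 (5.70 to 80.9) from 3 UMIs, overlapped acinar cluster 2. Ductal cells of the FAKi library had more per enzyme UMI than acinar cluster 2, with 19.4 for Ptf1a, a ratio of 3.60 (1.13 to 8.90), and 27.2 for Rbpjl, a ratio of 3.55 (1.38 to 7.65). Of their 5 Ptf1a and 7 Rbpjl UMIs, 2 and 4 lay in 2 cells, which had 7.13% and 23.1% of UMIs on acinar enzymes. In vehicle, the same ratios were 1.17 (0.138 to 4.49) and 1.72 (0.343 to 5.36), and neither interval left out 1. Bhlha15 was at 183 and 205 per 100000 enzyme UMIs in β-cell cluster 1, which was 46.3-fold (32.1 to 68.5) and 36.7-fold (27.5 to 49.7) above acinar cluster 2. The enzymes were at 11941 and 10458 CPM in β-cell cluster 1, against 705026 and 699996 CPM in acinar cluster 2. A gene present in both classes, such as Bhlha15, is thus far higher in β-cells on this scale by construction.

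**Figure D3:**
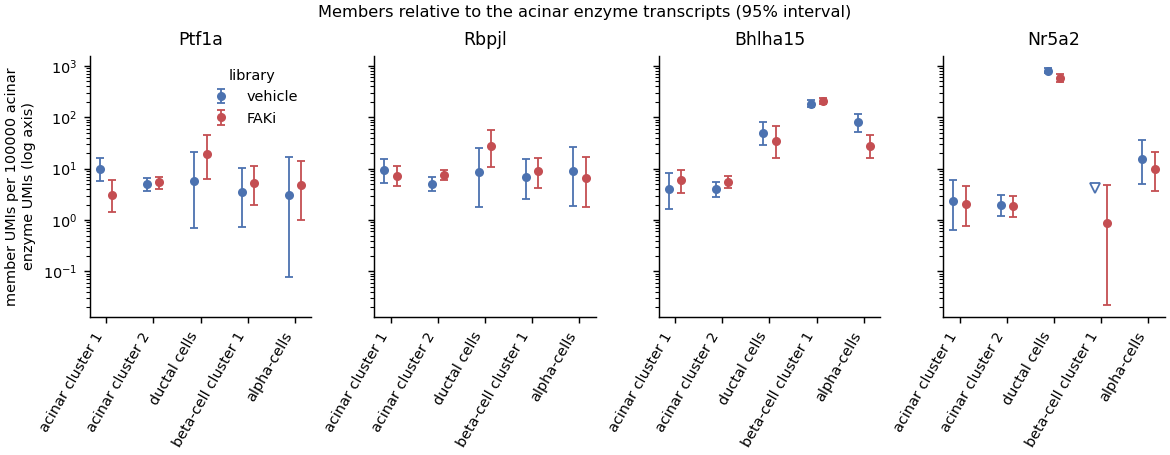
UMIs of Ptf1a, Rbpjl, Bhlha15 and Nr5a2 per 100000 UMIs of the 21 acinar enzymes in 5 classes and both libraries, on a log axis with 95% intervals as bars; an open triangle marks an upper bound where no UMI was found. For Ptf1a and Rbpjl, β-cell cluster 1 and α-cells overlap acinar cluster 2, whereas Bhlha15 in β-cell cluster 1 (183 and 205) and Nr5a2 in ductal cells (808 and 583) lie far above acinar cluster 2 (3.96 and 5.59 for Bhlha15, 1.98 and 1.90 for Nr5a2). These 2 classes hold a far smaller share of enzyme UMIs than acinar cluster 2, which raises a gene of a given CPM on this scale.

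β-cell cluster 1 held more acinar transcripts than β-cell cluster 0, and 19 of 19 acinar enzymes with enough UMIs were past the limit upward in both libraries. Erythroid markers were higher there too, at 5645 against 12.3 CPM in vehicle and 601 against 3.90 CPM in FAKi, and their part in these ratios was not tested. Ptf1a had 3 against 1 UMIs in vehicle and 6 against 3 in FAKi, with a FAKi ratio of 4.49 (0.959 to 27.7). Rbpjl had 6 against 4 UMIs and 10 against 4, with ratios of 4.71 (1.12 to 22.7) and 5.61 (1.62 to 24.5). Both genes fell short of 20 UMIs and were not counted. Bhlha15, the 1 member with enough UMIs, had ratios with intervals that held 1, at 0.973 (0.808 to 1.16) in vehicle and 0.941 (0.804 to 1.10) in FAKi. In the 1 draw of cells thinned to 1000 UMIs the FAKi ratio was 2.37, and the mean of CPM over cells gave 1.08. It was not past the limit, against 2.19% of 12063 genes in vehicle and 1.55% of 12156 in FAKi.

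Bhlha15 was also compared between the libraries in each endocrine class. FAKi over vehicle was 1.01 (0.897 to 1.15) in β-cell cluster 0, where 2.39% of genes were past the limit, 0.980 (0.797 to 1.21) in β-cell cluster 1 (2.32% of genes) and 0.917 (0.641 to 1.31) in β-cell cluster 10 (2.45% of genes). In α-cells it was 0.412 (0.210 to 0.790), from 26 and 17 UMIs, and was past the limit, against 2.65% of 11570 genes. In α-cell cluster 5 there were 20 and 6 UMIs (6.88 and 1.37 CPM, ratio 0.200, 0.0657 to 0.516), while α-cell cluster 9 had 6 and 11 UMIs (6.79 and 6.69 CPM) and a ratio of 0.984 (0.334 to 3.24). The difference between these clusters was not tested. Ppy in α-cells was also lower in FAKi, at 40387 and 13262 CPM in α-cell cluster 5 and 62348 and 24883 CPM in α-cell cluster 9, and its part in the Bhlha15 ratio was not tested. In δ-cells the ratio was 1.61 (1.03 to 2.55), from 32 and 61 UMIs, with 2.21% of genes past the limit. The δ-cell clusters 6 and 8 gave 1.91 (0.958 to 4.02) and 1.39 (0.770 to 2.60), both above 1 with intervals that held it.

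Insulin UMIs were found outside β-cells too, so Bhlha15 was also set against them. Per 100000 UMIs of Ins1 and Ins2, β-cell cluster 0 had 4.0 (3.66 to 4.36) in vehicle and 4.02 in FAKi. Endothelial cells had 3.09 (1.13 to 6.72) and 6.22 (2.50 to 12.8), intervals that held the β-cell value. α-cells had 177 (115 to 259) and 52.9 (30.8 to 84.7), and δ-cells 62.4 (42.7 to 88.1) and 167 (127 to 214). These intervals lay above the β-cell value. So did those of acinar cluster 1 in both libraries, at 13.5 (5.44 to 27.9) and 9.88 (5.76 to 15.8), of acinar cluster 2, at 436 (305 to 604) and 456 (347 to 588), of vehicle ductal cells, at 12.2 (7.13 to 19.6), and of FAKi macrophages, at 12.3 (4.96 to 25.4), while FAKi ductal cells, at 8.42 (3.85 to 16.0), overlapped it. Fibroblasts, at 6.49 (3.11 to 11.9) and 6.86 (2.23 to 16.0), also overlapped the β-cell value.

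In ductal cells, Nr5a2 was higher in FAKi than in vehicle, with a ratio of 1.55 (1.26 to 1.90), and Bhlha15 had a ratio of 1.52 (0.598 to 3.61) from 17 and 9 UMIs. Neither of these 2 members was past the limit, against 4.32% of 12058 genes. Without called doublets the Bhlha15 ratio was 3.65, and in thinned cells the Nr5a2 ratio was 2.21. Acinar enzyme levels were also higher in FAKi ductal cells, where 10 of 19 enzymes were past the limit upward with a median log2 ratio of 1.11, and the part of this in the Nr5a2 ratio was not tested. Per enzyme UMI, the ratio of Nr5a2 in ductal cells over acinar cluster 2 was 408 (253 to 699) in vehicle and 308 (192 to 518) in FAKi. Ductal cells hold a far smaller share of enzyme UMIs, which raises this ratio by construction. Outside ductal cells, Nr5a2 in FAKi over vehicle was 0.590 (0.276 to 1.23) in δ-cells and 1.24 (0.757 to 1.98) in endothelial cells, the latter not past the limit, against 4.53% of 10666 genes.

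**Figure D4:**
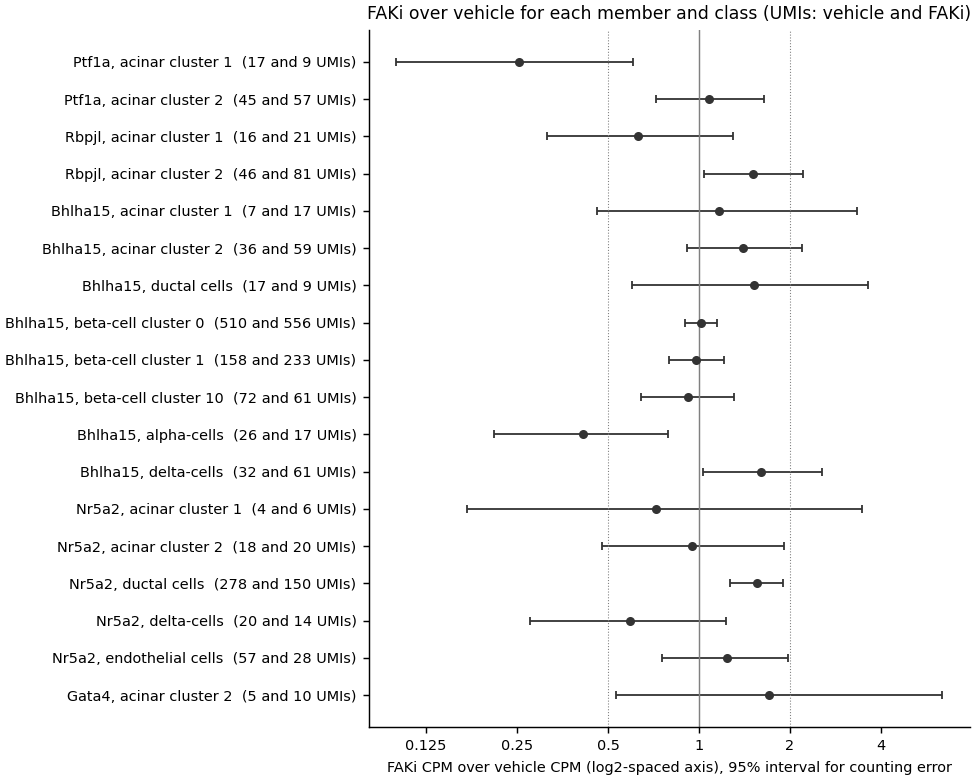
FAKi over vehicle ratio of CPM for members and classes with enough UMIs, on a log2-spaced axis, with exact conditional 95% intervals as bars, the UMIs of both libraries beside each name and dotted lines at 0.5 and 2. Pairs with few UMIs are not drawn, which outside the acinar clusters means under 20 in both libraries together. Of the ratios drawn, Ptf1a in acinar cluster 1 (0.254) and Bhlha15 in α-cells (0.412) are under 0.5, and none is over 2.

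The wider set of regulators and targets was counted by the same limit. Of the PTF1 partners Rbpj, Tcf3, Tcf4 and Tcf12, only Tcf4 had enough UMIs in the acinar comparisons, and it was not past the limit in any of the 4, in which 31.0%, 37.6%, 5.49% and 4.68% of all genes were (cluster 1 over cluster 2 in vehicle and in FAKi, then FAKi over vehicle in clusters 1 and 2). Rbpj, which mediates Notch signals, had 1 to 3 UMIs in each acinar group, against 274 and 106 in ductal cells (43.9 and 48.8 CPM). In ductal cells all 4 partners had enough UMIs and 0 were past the limit between the libraries, against 4.32% of all genes.

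Inhibitors of bHLH factors and Notch-target repressors were a list of 6 genes. In vehicle, 1 of 2 with enough UMIs was past the limit between the acinar clusters, namely Id2, a dominant-negative partner of E proteins, at 36.8 CPM in cluster 1 and 9.31 CPM in cluster 2 (ratio 3.96, 1.66 to 9.48). In FAKi, 0 of 2 were past it. All genes gave 31.0% and 37.6% in these comparisons. In acinar cluster 2, FAKi over vehicle was 2.14 (1.06 to 4.58) for Id2 and 0.383 (0.183 to 0.761) for Hes1, a repressor induced by Notch, so both of 2 were past the limit in opposite directions, against 4.68% of all genes. In acinar cluster 1, 0 of 1 were past it (5.49% of all genes). In ductal cells 2 of 4 were past it, against 4.32% of all genes, Id1 at 0.428 (0.362 to 0.504) and Id3 at 0.429 (0.336 to 0.541). Hes1 in ductal cells was at 1012 CPM in vehicle and 639 CPM in FAKi.

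Among 13 other pancreatic transcription factors, Nkx6-1, a β-cell factor, was past the limit upward in acinar cluster 1 over cluster 2 in both libraries, at 10.3 (3.89 to 32.0) and 20.9 (9.05 to 59.0). It was 1 of 3 with enough UMIs in vehicle. In FAKi, Pdx1, a factor of β-cells and early pancreas, was past the limit too, at 3.96 (2.0 to 8.16), making 2 of 6. Of all genes, 31.0% and 37.6% were past it there, nearly all upward. Between the libraries, 0 of 3 were past the limit in acinar cluster 1 and 0 of 4 in acinar cluster 2, against 5.49% and 4.68% of all genes. In ductal cells, 0 of 13 were past it (4.32% of all genes), although 11 of the 13 had a ratio over 1. Their median log2 ratio there was 0.38, against 0.01 for all genes. Nr0b2, which represses nuclear receptors, was at 1.91 (1.37 to 2.64), and Sox9, a ductal factor, at 1.31 (1.23 to 1.39).

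The acinar enzymes, the known targets of PTF1, were lower in acinar cluster 1 than in cluster 2 by a median log2 ratio of -0.60 in vehicle and -0.85 in FAKi. In vehicle 3 of 20 were past the limit downward and 0 upward, and in FAKi 5 of 21 downward and 1 upward. Of all genes, 35 of 1819 in vehicle and 71 of 2890 in FAKi were past it downward. The exception in FAKi was Prss1, a trypsinogen whose reads may be shared with its close paralogs, at 5.08 (3.08 to 8.65). FAKi over vehicle had 1 of 21 past the limit in each acinar cluster, again Prss1, at 5.48 (2.21 to 17.5) in cluster 1 and 2.46 (1.06 to 6.35) in cluster 2, where 5.49% and 4.68% of all genes were past it. The median log2 ratio over the enzymes was -0.21 in cluster 1 and -0.06 in cluster 2, beside 0.09 and 0.10 over all genes.

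The secretory apparatus, in which several genes are known targets of Bhlha15, had a median log2 ratio of -0.57 in vehicle and -1.01 in FAKi between the acinar clusters, with 3 of 6 past the limit downward in each, against 35 of 1819 and 71 of 2890 genes. Gp2, a zymogen granule membrane protein, was at 0.459 (0.403 to 0.521) and 0.402 (0.365 to 0.442). Between the libraries, 0 of 5 were past the limit in acinar cluster 1 and 0 of 8 in acinar cluster 2, against 5.49% and 4.68% of all genes. In ductal cells (4.32% of all genes), Gp2 at 4.96 (3.42 to 7.26) and Cuzd1 at 4.11 (2.47 to 6.92) were past it upward and Zg16 at 0.321 (0.294 to 0.351) downward, out of 7. In β-cell cluster 1 over cluster 0, 4 of 6 were past it upward in each library, against 2.19% of all genes in vehicle and 1.55% in FAKi past it in either direction.

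Genes with the pattern most like each member were found by Pearson correlation of log2(CPM + 1) over 27 class-by-library groups, among 14092 genes with at least 100 UMIs. The groups of a class share its cell type and those of a library its free RNA, so r is a description. Ptf1a was most like Tmed11 (r = 0.94), Reg2 (0.93) and Rbpjl (0.93), and Rbpjl was most like Tmed11 (0.96), Hamp2 (0.95) and Klk1b5 (0.95). Bhlha15 was most like Fkbp11 (0.90), which encodes a prolyl isomerase of secretory cells, then Nucb2 (0.76) and Rgs11 (0.75). Nr5a2 was most like Proser2 (0.86), Tc2n (0.84) and Rab27b (0.82), and Gata4 most like Reg3b (0.81), Reg2 (0.77) and Ggt1 (0.74). With a pseudocount of 10, Fkbp11 and Proser2 still led for Bhlha15 and Nr5a2, at 0.92 and 0.90, and Reg3b led for Ptf1a, at 0.99. The other genes changed more: Aqp12, Gal and Try10 took the place of all 3 for Rbpjl, Asns and Gcat followed Fkbp11, Fgfr3 and Ttpa followed Proser2, Reg3b replaced Tmed11 for Ptf1a, and Ptf1a replaced Ggt1 for Gata4. Without the FAKi cells annotated as T cells (26 groups), 14 of these 15 genes stayed, and Lgals12 replaced Nucb2 for Bhlha15.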

How the data were processed

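Single cells of mouse islets were measured in 1 vehicle and 1 FAKi library by droplet-based 3′ scRNA-seq. The authors counted UMIs with Cell Ranger and filtered cells with Seurat (3.1 in the submitters' processing notes, with mm10 as the build). They normalized with SCRAN, integrated with scanorama and clustered by the Louvain method. The deposited counts used here are raw UMI counts per gene and cell. The deposited percent of mitochondrial UMIs per cell, computed by the authors, was below their limit of 8% in every cell. The count table holds fewer cells than the study loaded for sequencing. In it, 2 rows repeat the gene name of another row, and no member is among them.

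Groups came from the labels, with the 4 lanes of a library treated as 1 sample, and classes from the deposited annotation. UMIs were summed per class and library and divided by the total (CPM). Levels carry exact Poisson, ratios exact conditional binomial and shares Clopper-Pearson 95% intervals. They cover counting error only. Genes past the limit had a ratio of at least 2 or at most 0.5 with an interval leaving out 1 and at least 20 UMIs in both groups together. Thinning drew 1000 UMIs per cell (seed 0). Doublets were called with scrublet in each library (68 vehicle and 57 FAKi cells), kept, and left out as an alternative. The scripts were tested on simulated counts. The tools were scanpy 1.11.5, scipy 1.17.1, numpy 2.4.6, pandas 2.3.3 and matplotlib 3.10.9 under python 3.11.15.

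The genes named are the 5 members, the 3 genes most like each, and at most 4 of each of 5 lists, by a rule. Malat1, Ppy and insulin were named after their values were seen, as were the like genes under other settings. The members and lists were chosen with earlier results of these data known. Added after seeing the data were the insulin reference, the α- and δ-cell clusters, the ductal alternatives, the fibroblast and pericyte background, the cells rich in Malat1, the results without FAKi T cells, and ratios per enzyme UMI. Promoter windows were matched by symbol. The integration, pseudotime and enrichment of the study were not used here.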

Additional observations from a re-analysis of the deposited data

Results flagged for a closer look

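For some members, the ratio of FAKi over vehicle lay on opposite sides of 1 in different classes, and the differences between the classes were not tested. Ptf1a in FAKi over vehicle was 0.254 in acinar cluster 1 and 1.08 in acinar cluster 2. Bhlha15 was 0.412 in α-cells, against 1.40 in acinar cluster 2, 1.01 in β-cell cluster 0 and 1.61 in δ-cells. Nr5a2 was 1.55 in ductal cells and 0.590 in δ-cells. With 1 library per condition, what differs between the mice and what differs between the libraries cannot be told apart.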

How the results depend on the processing

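The 26 member ratios were recomputed under 8 other settings where each applied, which gave 198 values. Of these, 191 stayed within the counting interval of the value reported, 6 moved outside it, and 1, from a ratio whose interval had left out 1, turned to the other direction. In all, 16 of the values, over 11 of the ratios, lay on the other side of 1 from the value reported, 11 of them within its interval. Another 10 values could not be computed for lack of UMIs, 9 of them after thinning. Thinning to 1000 UMIs turned Rbpjl in FAKi over vehicle in acinar cluster 2 from 1.51 to 0.660. It also moved Rbpjl in acinar cluster 1 over cluster 2 in vehicle to 0.637, Nr5a2 in the same comparison in FAKi to 1.64, Bhlha15 in β-cell cluster 1 over cluster 0 in FAKi to 2.37 and Nr5a2 in ductal cells to 2.21. Averaging CPM over cells in place of summing UMIs gave 2.04 for Nr5a2 in FAKi over vehicle in acinar cluster 2, and leaving out called doublets gave 3.65 for Bhlha15 in ductal cells. The cause of these changes was not tested. Thinned counts rest on a few UMIs per group and on 1 draw.

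The number of genes past the limit moved with the UMI minimum by over 1.5 times, except in β-cell cluster 1 over cluster 0 in FAKi with no minimum, where it was 268 against the 189 reported. With at least 100 UMIs and with no minimum, it was 94 and 1458 in acinar cluster 1 over cluster 2 in vehicle and 178 and 2239 in FAKi. It was 13 and 256 in FAKi over vehicle in acinar cluster 1, 13 and 313 in acinar cluster 2, and 74 and 469 in β-cell cluster 1 over cluster 0 in vehicle. In FAKi it was 58 with at least 100 UMIs. Without called doublets, all 24 shares and all 20 values per enzyme UMI that were recomputed stayed within their intervals. With Cpa1 and Cela1 alone as the reference, 19 of the 20 values per enzyme UMI moved, since the reference is smaller by construction. At 2000 and 5000 UMIs, 5 and 18 of the 24 shares moved, since deeper cells show more genes. With the share expected over all draws in place of 1 draw, 2 of 24 moved, Rbpjl in vehicle acinar cluster 2 to 3.20% and Bhlha15 in FAKi β-cell cluster 0 to 2.22%. No paired analysis was possible because there is 1 library per condition and the lane numbers do not mark separate animals.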
